A study of Mus musculus with 12 samples.

Results

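Nuclear-encoded respiratory chain genes were taken from the mm10 RefSeq gene set by symbol, as the protein-coding nuclear genes whose symbols begin with Nduf (complex I), Uqcr (complex III), Cox4 to Cox8 (complex IV) or Atp5 (complex V, the ATP synthase). This gave 92 of 21887 protein-coding nuclear genes, of which 49 belonged to complex I, 8 to complex III, 18 to complex IV and 17 to complex V. A gene start could be placed for 91 of the 92 and for 21468 of the 21887 genes. A gene was counted as having a peak when any part of a called H3K36ac peak lay within 3 kb of its start, which is referred to below as a promoter peak. The rule itself uses symbols only and no measured value.

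The mark was mapped by chromatin immunoprecipitation and sequencing in spermatogonia-enriched cells from the testes of mice at postnatal day 5, with 50000 cells per sample. There were 3 WT and 3 Sirt7-/- samples (S7KO in the labels), each from a different mouse, all on the same inbred strain background, and numbered as replicates 2, 3 and 4 in either genotype. The mutant is a germline knockout, so the deacetylase SIRT7 was absent from every cell type of the animal and not only from spermatogonia, and the cells were enriched by differential plating, which leaves some somatic cells. Broad peaks had been called by the authors in each ChIP sample against its own input, and the comparison addresses where H3K36ac, an acetylation removed by SIRT7, is called at these genes when the enzyme is missing.

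The respiratory chain passes electrons from NADH and succinate to oxygen and pumps protons across the inner mitochondrial membrane, and the ATP synthase uses the resulting gradient to make ATP. A few core subunits are encoded by mitochondrial DNA, and all others, the genes described here among them, are transcribed in the nucleus, mostly as housekeeping genes. Their promoters are often rich in CpG and are classical targets of the transcription factors NRF1 and GABP. Spermatogonia are regarded as comparatively glycolytic, whereas later germ cells rely more on oxidative phosphorylation and switch on some testis-specific subunits. H3K36ac is a mark of active promoters that lies around transcription start sites.

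The 6 lists differed in length. The Sirt7-/- lists held 2840, 2045 and 2591 peaks in replicates 2, 3 and 4, and the WT lists held 906, 64 and 294. The files give no reads, and the depth that entered peak calling, after the removal of duplicates, is not known here. The strength of the mark was therefore not compared between samples, and a missing call does not show that the mark was missing. Since every Sirt7-/- list was longer than every WT list, genotype and list length cannot be told apart in any comparison of calls. Sirt7 itself had no promoter peak in any of the 6 samples, so the lists do not check the genotype labels. Of 12 spermatogonial marker genes, 6 had a promoter peak in at least 1 Sirt7-/- sample (4, 0 and 3 by replicate) and 1, Dmrt1, in a WT sample. A promoter peak was found at 1 of 5 Sertoli cell markers (Sox9, Sirt7-/- replicate 3), 0 of 4 Leydig cell markers and 0 of 3 peritubular myoid cell markers. Over all protein-coding starts, 19.3% had a peak in at least 1 Sirt7-/- and 5.12% in at least 1 WT sample. Marker lists this short therefore do not check the cell type.

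The genes called in any WT sample or called throughout Sirt7-/- but never in WT were ordered by their mean rank in the Sirt7-/- lists, and the promoters of the first 5 with an entry in the RefSeq promoter table are shown, since the wide or repeated calls described below lie on or next to them. Each holds the 250 bases before and the 50 bases from the gene start, from RefSeq on GRCm38.p6 (the assembly behind mm10), on the minus strand and written 5′ to 3′. Capitals mark matches on either strand to GCGCATGCG (NRF1), CCGGAAG (ETS factors, GABP among them), AAGATGGCG (YY1) or GGGCGGG (SP1).
Uqcrh, chr4:116075021-116075320, minus strand
Uqcrh: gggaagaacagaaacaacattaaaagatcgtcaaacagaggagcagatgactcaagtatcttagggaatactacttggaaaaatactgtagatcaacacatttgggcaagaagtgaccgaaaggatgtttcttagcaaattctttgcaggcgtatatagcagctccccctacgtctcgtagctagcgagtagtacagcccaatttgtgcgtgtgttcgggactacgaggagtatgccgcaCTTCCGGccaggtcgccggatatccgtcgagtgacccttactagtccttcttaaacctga
Ndufa4, chr6:11907401-11907700, minus strand
Ndufa4: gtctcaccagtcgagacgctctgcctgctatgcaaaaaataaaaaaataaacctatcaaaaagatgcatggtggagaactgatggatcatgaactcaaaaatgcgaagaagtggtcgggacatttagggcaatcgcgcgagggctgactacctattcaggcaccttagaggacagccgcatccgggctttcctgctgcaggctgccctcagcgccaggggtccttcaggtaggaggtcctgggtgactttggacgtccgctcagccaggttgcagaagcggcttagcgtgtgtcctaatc
Ndufb1, chr12:101975689-101975988, minus strand
Ndufb1: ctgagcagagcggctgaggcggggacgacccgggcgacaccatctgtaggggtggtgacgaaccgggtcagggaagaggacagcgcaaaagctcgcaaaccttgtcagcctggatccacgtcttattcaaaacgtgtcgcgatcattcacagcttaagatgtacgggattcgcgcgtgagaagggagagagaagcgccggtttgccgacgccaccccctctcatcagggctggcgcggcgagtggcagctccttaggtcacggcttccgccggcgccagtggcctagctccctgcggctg
Atp5pb, chr3:105959214-105959513, minus strand
Atp5pb: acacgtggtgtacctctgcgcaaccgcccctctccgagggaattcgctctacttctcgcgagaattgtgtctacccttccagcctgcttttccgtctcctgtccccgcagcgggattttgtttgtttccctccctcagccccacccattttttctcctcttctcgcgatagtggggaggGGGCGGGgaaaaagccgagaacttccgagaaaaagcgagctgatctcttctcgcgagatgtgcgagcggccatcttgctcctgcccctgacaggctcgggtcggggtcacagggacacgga
Atp5l, chr9:44920693-44920992, minus strand
Atp5l: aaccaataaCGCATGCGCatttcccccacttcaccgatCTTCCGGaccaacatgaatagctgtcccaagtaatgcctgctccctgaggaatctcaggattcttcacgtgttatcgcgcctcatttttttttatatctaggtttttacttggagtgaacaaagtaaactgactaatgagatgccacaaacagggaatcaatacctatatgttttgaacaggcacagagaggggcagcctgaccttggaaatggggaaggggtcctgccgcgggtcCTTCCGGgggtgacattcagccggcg
Uqcrh held an ETS match that began 10 bases before the start. In Atp5pb, the capitals are an SP1 match that began 71 bases before the start. Atp5l held an NRF1 match 241 bases before the start, an ETS match 212 bases before it and another ETS match just after it. Ndufa4 and Ndufb1 held none of the 4 motifs in this window. Uqcrq and Cox6c came after Ndufb1 and before Atp5pb in that order, and had no entry.

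Respiratory chain genes carried promoter peaks in every sample, far more often in Sirt7-/- than in WT lists. In Sirt7-/- replicates 2, 3 and 4, 19, 15 and 19 of the 91 genes had a promoter peak, and in WT replicates 2, 3 and 4 the numbers were 4, 2 and 1. At least 1 Sirt7-/- sample had a peak at 31 of the 91 genes (34.1%), beside 19.3% of all protein-coding starts. A peak in at least 1 WT sample was found at 7 genes (7.69%), beside 5.12% of all starts. All 7 also had a peak in at least 1 Sirt7-/- sample, and no respiratory chain gene was called in WT alone, a pattern found at 102 of the 1099 starts with a WT peak (0.475% of all starts). The groups did not overlap: the lowest Sirt7-/- share was 16.5% and the highest WT share 4.40%. Nor did they overlap over all protein-coding starts, where these values were 9.73% and 4.38%.

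On average 19.4% ± 2.54 (SD, n = 3) of the genes had a promoter peak in Sirt7-/- samples and 2.56% ± 1.68 (SD, n = 3) in WT samples, a difference of 16.8 percentage points. Over all protein-coding starts the shares were 11.6% ± 1.74 and 2.02% ± 2.11 (SD, n = 3 each), a difference of 9.54 points. Within each Sirt7-/- list, respiratory chain genes were therefore called more often than protein-coding genes in general, by a factor of 1.58 in replicate 2, 1.69 in replicate 3 and 1.78 in replicate 4 (mean 1.68 ± 0.0989, SD, n = 3). The WT factors were 1.00, 6.94 and 0.813. The high value of WT replicate 3 came from 2 genes in a list of 64 peaks, and the WT mean was 0.909 without it.

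**Figure D1:**
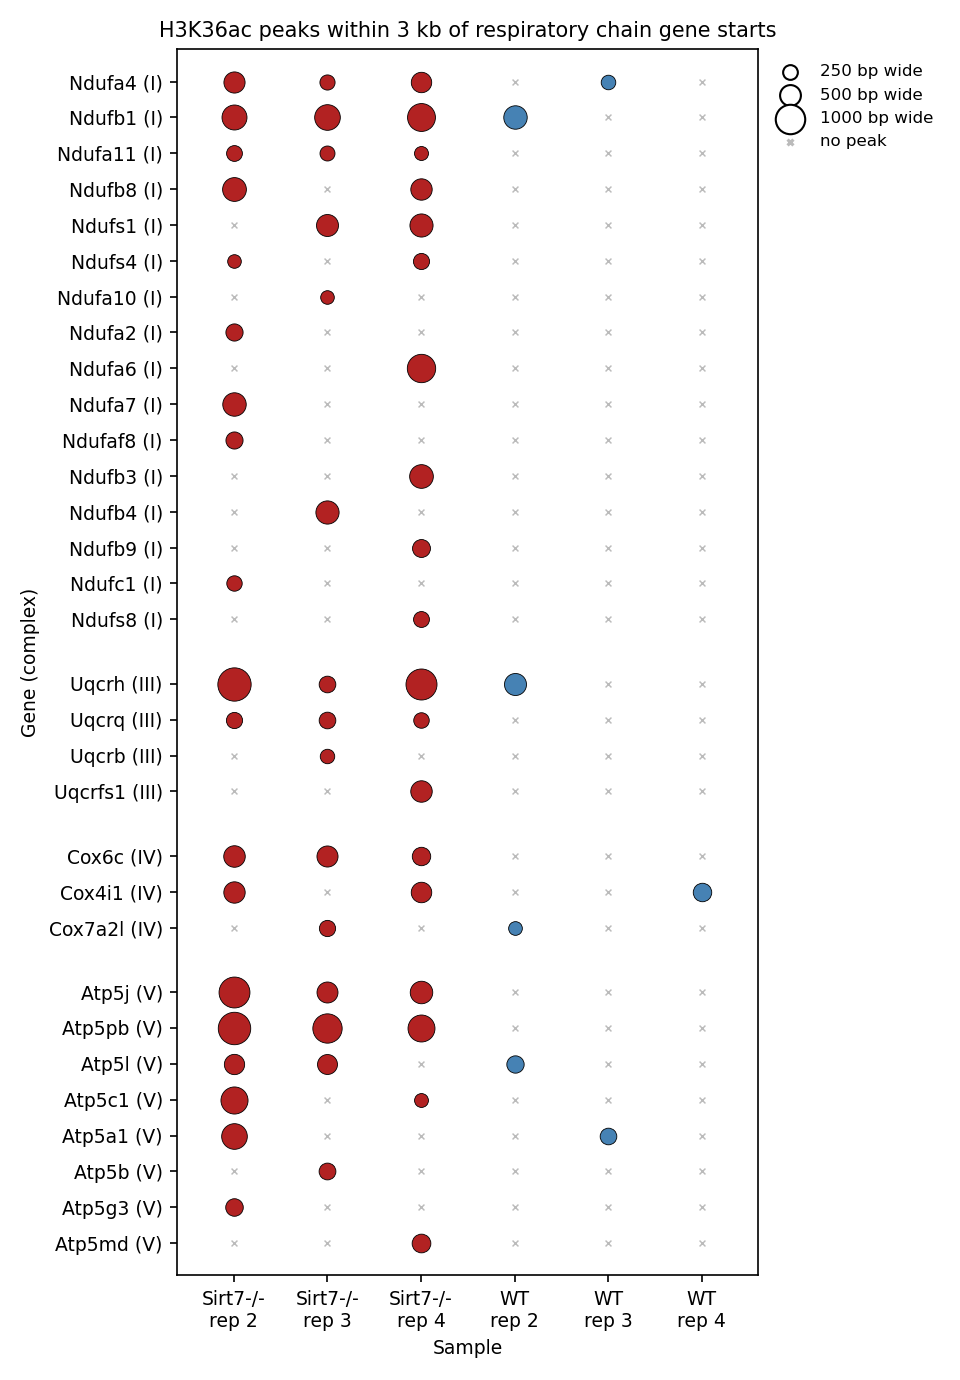
Promoter peaks at the 31 respiratory chain genes with a peak in any sample, by sample (x axis) and gene (y axis, with the complex in brackets); the area of a circle is proportional to the width of the peak in bp, and crosses mark samples without a peak. Red circles (Sirt7-/-) fill many rows in 1 replicate only, and the 7 blue circles (WT) all lie in rows that also hold a red one.

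Calls at these genes often came from a single animal. Of the 31 genes with a Sirt7-/- peak, 17 (54.8%) were called in 1 sample, 6 (19.4%) in 2 and 8 (25.8%) in all 3. Among the 4136 protein-coding starts with a Sirt7-/- peak the shares were 46.5%, 27.1% and 26.4%. The 8 genes called in all 3 Sirt7-/- samples were 8.79% of the list, beside 5.09% of all starts. They were Ndufa4, Ndufb1 and Ndufa11 of the complex I group, Uqcrh and Uqcrq of complex III, Cox6c of complex IV, and Atp5pb and Atp5j of complex V. Of them, 5 had no WT peak (Ndufa11, Uqcrq, Cox6c, Atp5pb and Atp5j), which is 5.49% of the list beside 2.45% of all starts. The remaining 60 genes (65.9%) had no promoter peak in any sample.

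The length covered by peaks within 3 kb of the start was larger in every Sirt7-/- than in every WT sample at 7 genes (7.69%), beside 3.79% of all starts. They were those 5 genes together with Ndufa4 and Ndufb1. With 3 samples against 3, the smallest p of the exact two-sided permutation test is 0.1, which these 7 genes reached, and the smallest Benjamini-Hochberg adjusted p over all 21468 starts was 1. No single gene therefore passed the test, and the values that follow are descriptions.

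The complex I group was called at 9, 6 and 10 of 49 genes in Sirt7-/- replicates 2, 3 and 4 and at 1, 1 and 0 in WT replicates 2, 3 and 4. The mean shares were 17.0% ± 4.25 and 1.36% ± 1.18 (SD, n = 3), beside 11.6% and 2.02% of all protein-coding starts. Complex I is the NADH dehydrogenase, the entry point of the chain and its largest enzyme. Without the Ndufaf genes, the group had 41 genes, Ndufa4 and Ndufa4l2 included, which were called at a mean of 19.5% ± 4.88 (SD, n = 3) in Sirt7-/- samples. Of the 8 Ndufaf genes, whose products help to assemble complex I and are not part of it, Ndufaf8 alone had a peak, in Sirt7-/- replicate 2.

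Ndufb1 encodes a small accessory subunit of the membrane arm. Its promoter peak was 720, 758 and 896 bp wide in Sirt7-/- replicates 2, 3 and 4 and 633 bp wide in WT replicate 2, and none was called in WT replicates 3 and 4. The WT peak was thus narrower than each Sirt7-/- peak, although it ranked higher in its own list (102 of 906 peaks by the authors' -log10 q) than those of Sirt7-/- replicates 2 and 3 (1441 of 2840 and 1199 of 2045). The Sirt7-/- peak of replicate 4 ranked 283 of 2591. In 3 of the 4 samples with a peak the 300 bases printed above lay within it entirely. The start of Cpsf2, a subunit of the mRNA cleavage and polyadenylation complex, lies 21 bp away on the other strand and was the nearest start to all 4 peaks.

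Ndufa4 carries a complex I symbol, although its product is now assigned to complex IV. Peaks of 516, 265 and 480 bp were called in the Sirt7-/- samples and 1 of 244 bp in WT replicate 3, the shortest of the lists. Here the narrowest Sirt7-/- peak was 21 bp wider than the WT peak. The start of Phf14, 275 bp away on the other strand, was the nearest start to both of these peaks. Ndufa4 was the best-ranked respiratory chain gene of the Sirt7-/- replicate 2 list, at 204 of 2840.

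Ndufa11 encodes a membrane subunit of complex I. Its peaks were narrow and alike, at 288, 259 and 225 bp in the Sirt7-/- samples, and began 112, 55 and 101 bp downstream of the start, inside the gene. They ranked 1567 of 2840, 1354 of 2045 and 2063 of 2591, in the weaker part of each list. No WT peak was called. The start of Vmac lies 63 bp away on the other strand, but that of Ndufa11 was the nearest to all 3 peaks.

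A further 3 complex I genes were called in 2 Sirt7-/- samples and no WT sample. For Ndufs1, which encodes the largest iron-sulphur subunit of the enzyme, the peaks were 557 bp (replicate 3) and 617 bp (replicate 4) wide. Its start lies 9 bp from that of the translation elongation factor gene Eef1b2, which was nearer to both peaks. Ndufs4, an accessory subunit gene needed for a stable enzyme, had peaks of 214 bp (replicate 2) and 300 bp (replicate 4), both just downstream of a start that it shares with no other gene. At Ndufb8 the widths were 652 bp (replicate 2) and 527 bp (replicate 4). The other 10 genes of the group with a peak, Ndufs8 and Ndufaf8 among them, were called in 1 Sirt7-/- sample each. The core subunit genes Ndufs3, Ndufs7, Ndufv1 and Ndufv2, most of which carry the flavin or iron-sulphur centres, had no promoter peak in any sample.

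Complex III, the cytochrome bc1 complex that passes electrons from ubiquinol to cytochrome c, was called at 2, 3 and 3 of 8 genes in Sirt7-/- replicates 2, 3 and 4 and at 1, 0 and 0 in WT. Its mean shares were 33.3% and 4.17%, beside 11.6% and 2.02% of all starts. Uqcrh, the hinge protein that helps cytochrome c to dock, had the widest single peak of the whole list. Its peaks measured 1279, 320 and 1109 bp in Sirt7-/- replicates 2, 3 and 4 and 559 bp in WT replicate 2. The groups overlapped, because the Sirt7-/- replicate 3 peak was narrower than the WT peak. All 4 peaks lay upstream of the Uqcrh start, with midpoints 754, 572.5, 902 and 600 bp before it, and the nearest start was that of Lrrc41, 199 bp away on the other strand. Of the promoter printed above, 136 bases were within the Sirt7-/- replicate 2 peak and none within the other 3.

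Uqcrq, a small subunit close to the ubiquinone-binding part of complex III, had peaks of 302, 320 and 278 bp in the Sirt7-/- samples and none in WT. They ranked 247 of 2840, 1066 of 2045 and 1568 of 2591. All 3 lay inside the gene, 127 to 491 bp downstream of its start. The start of Gdf9, which encodes an oocyte growth factor, lies 57 bp inside Uqcrq on the other strand, so that the peaks were upstream of Gdf9. Uqcrfs1, the Rieske iron-sulphur protein, was called in Sirt7-/- replicate 4 only, yet with a fold of 5.93 over input and rank 84 of 2591, the best of any respiratory chain peak in that list. Uqcrb was called in Sirt7-/- replicate 3 only, and the core protein genes Uqcrc1 and Uqcrc2 in no sample.

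Complex IV, cytochrome c oxidase, had the lowest mean share of the 4 in Sirt7-/- samples, with 2 of 18 genes (11.1%) called in each, close to the 11.6% of all starts. In WT samples 1, 0 and 1 were called, a mean of 3.70%, beside 2.02% of all starts. The WT mean was 1.36% for the complex I group and 4.17% for complex III and for complex V. Cox6c, which encodes a small membrane subunit, had peaks of 534, 512 and 392 bp in the Sirt7-/- samples and none in WT. It was the only gene among the 8 called in all 3 Sirt7-/- samples with no other protein-coding start within 1 kb, and its peaks began 186, 338 and 301 bp downstream of its start.

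Cox4i1 encodes the general isoform of the regulatory subunit that binds ATP. Its peaks were 526 bp (replicate 2) and 484 bp (replicate 4) wide in Sirt7-/- samples and 394 bp wide in WT replicate 4, where it was the only respiratory chain gene called. In Sirt7-/- replicate 4 this peak ranked 154 of 2591, and in replicate 3 none was called, so the groups overlapped. Cox7a2l, a factor in joining complexes III and IV, was called in Sirt7-/- replicate 3 (304 bp, rank 75 of 2045) and in WT replicate 2 (217 bp, rank 641 of 906). Cox5a and Cox5b, whose products surround the mitochondrially encoded catalytic core, were called in no sample at this start. When every RefSeq start was counted, Cox5a was called in 1 Sirt7-/- sample at another start of the gene.

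Several complex IV subunits and NDUFA4 exist as a widely expressed form and a form confined to certain tissues. Of the 7 widely expressed paralogues (Cox4i1, Cox6a1, Cox6b1, Cox7a2, Cox7b, Cox8a and Ndufa4), Cox4i1 and Ndufa4 had peaks. Of the 8 tissue-restricted paralogues (Cox4i2, Cox6a2, Cox6b2, Cox7a1, Cox7b2, Cox8b, Cox8c and Ndufa4l2), which include the testis forms Cox6b2, Cox7b2 and Cox8c, 0 had a promoter peak in any sample. Over all protein-coding starts 80.3% had none, and lists of 7 and 8 genes are short beside that share.

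Complex V was called at 6, 4 and 4 of 16 placed genes in Sirt7-/- replicates 2, 3 and 4 and at 1, 1 and 0 in WT, with mean shares of 29.2% ± 7.22 and 4.17% ± 3.61 (SD, n = 3). Over all starts these shares were 11.6% and 2.02%. Atp5pb and Atp5j both belong to the peripheral stalk, which holds the catalytic head still while the rotor turns. Atp5pb (subunit b) had peaks of 1214, 991 and 838 bp in the Sirt7-/- samples and none in WT, at a mean width of 1014 ± 189 bp (SD, n = 3). All 300 printed promoter bases were inside each of them. The peaks also reached the start of Wdr77, a partner of the arginine methyltransferase PRMT5, 235 bp away on the other strand.

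Atp5j (coupling factor 6) had peaks of 1100, 508 and 584 bp in the Sirt7-/- samples and none in WT. Their ranks, 2385 of 2840, 1344 of 2045 and 474 of 2591, ran from the weak to the strong end of the lists. The peaks lay 53 to 1152 bp downstream of the start, around the start of Gabpa, which lies 966 bp inside Atp5j on the other strand, or between the 2 starts, so that 1 set of peaks was counted for both genes. Gabpa encodes the DNA-binding subunit of GABP. Atp5l, subunit g of the membrane part, had peaks of 474 bp (replicate 2) and 459 bp (replicate 3) in Sirt7-/- samples and 346 bp in WT replicate 2. These 3 peaks were centred on the start, with midpoints 8.5, 7 and 16.5 bp downstream of it. They covered 278, 272 and 206 of the printed bases. No peak was called in Sirt7-/- replicate 4, so the groups overlapped.

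The catalytic head of the ATP synthase was called now and then. Atp5a1 (alpha subunit) had a 758 bp peak in Sirt7-/- replicate 2 and a 319 bp peak in WT replicate 3, the latter at rank 7 of 64, with the start of Haus1 117 bp away. Atp5b (beta subunit) had 1 peak of 325 bp in Sirt7-/- replicate 3 and ranked 1854 of 2045. Atp5c1 (gamma subunit of the rotor) had peaks of 846 and 222 bp in Sirt7-/- replicates 2 and 4, at ranks 2390 of 2840 and 2265 of 2591. Of the 3 genes for subunit c of the rotor ring, Atp5g1 and Atp5g2 had no peak, and Atp5g3 had 1 of 355 bp in Sirt7-/- replicate 2, whose midpoint lay 1428 bp downstream of the gene start. Atp5mpl could not be placed because no strand was found for it, but Sirt7-/- replicates 2 and 4 had peaks of 533 and 539 bp at 1 end of the gene, and no sample had a peak at the other end.

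Of the 13 core subunit genes of complexes I, III and V considered, 6 had a peak in at least 1 Sirt7-/- sample (beside 19.3% of all starts) and 1, Atp5a1, in a WT sample (beside 5.12%). The Sirt7-/- shares of complex III and complex V were above that of all respiratory chain genes and those of complex I and complex IV were below it, but complex III has 8 genes, and no difference between complexes was tested.

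**Figure D2:**
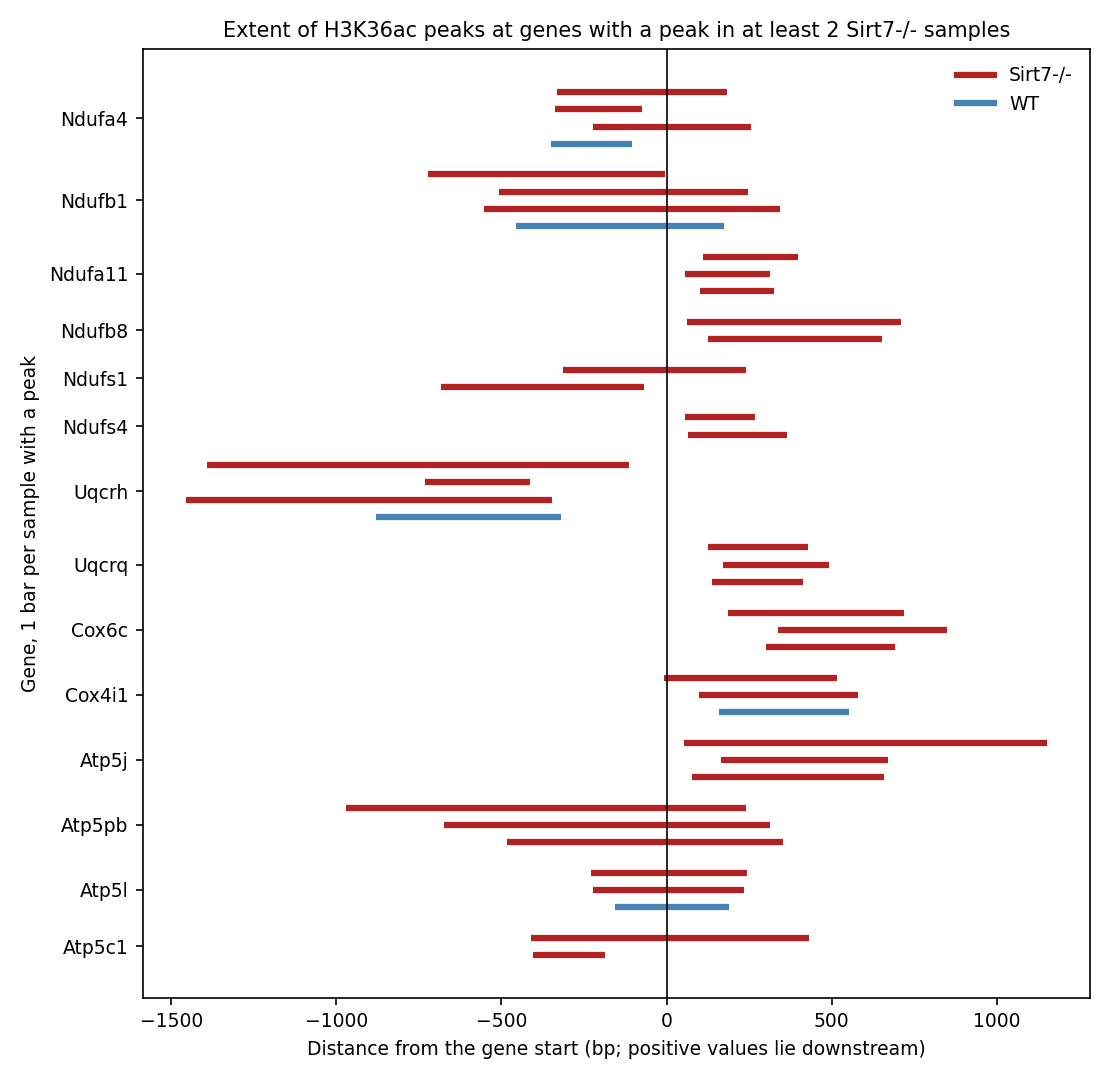
Extent of each promoter peak (x axis, bp from the gene start, positive values downstream) at the 14 genes with a peak in at least 2 Sirt7-/- samples, 1 bar per sample (y axis, by gene). The peaks of each gene share a stretch: at Uqcrh all 4 are upstream, at Ndufa11, Uqcrq, Cox6c and Atp5j all are downstream, and at Atp5l all 3 span the start.

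Where peaks of a gene were called in several samples they overlapped, as the plot of peak extents by gene shows for most of them. At all 16 genes with more than 1 peak, some stretch lay within every peak of the gene, and the midpoints of a gene spanned 3.5 bp (Ndufb8) to 338 bp (Ndufs1), with a median of 141.25 bp. Of the 53 Sirt7-/- peaks, 32 had their midpoint downstream of the gene start and 20 covered the start itself. The median midpoint was 162.5 bp downstream, and 1 midpoint (Atp5g3) lay more than 1 kb away. The 7 WT peaks had their median midpoint 101 bp upstream. They lay at 7 genes and the Sirt7-/- peaks at 31, so these medians do not compare the same genes. Widths ran from 214 to 1279 bp in Sirt7-/- samples (median 484 bp) and from 217 to 633 bp in WT samples (median 346 bp). For all promoter peaks, the median width of a list was likewise larger in Sirt7-/- (491, 456.5 and 468 bp) than in WT (376, 272 and 300 bp).

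A neighbouring gene start accompanied most of the repeated calls. Of the 91 genes, 32 (35.2%) had another protein-coding start within 1 kb, in every case on the opposite strand, against 2418 of 21468 starts (11.3%). Shared starts were found at 10 of the 14 genes called in at least 2 Sirt7-/- samples, at 7 of the 17 called in 1 and at 15 of the 60 without any peak. Over all protein-coding starts the same numbers were 563 of 2214, 436 of 1922 and 1399 of 17230, so there too shared starts were more frequent among called starts. Of the 32 genes, 13, 8 and 13 had a promoter peak in Sirt7-/- replicates 2, 3 and 4, or 35.4% ± 9.02 (SD, n = 3), and all shared starts of the genome were at 25.4% ± 3.65. Of the 59 genes without a shared start, 6, 7 and 6 had a peak, or 10.7% ± 0.979, and all such starts were at 9.80% ± 1.51. Among genes without a shared start the mean ratio to all such starts was thus 1.12 ± 0.280 (SD, n = 3). Among those with one it was 1.38 ± 0.191, compared with 1.68 before the split. In WT samples, 5.21% ± 1.80 of the 32 genes and 1.13% ± 1.96 of the 59 genes had a peak. All starts of these kinds were at 4.33% ± 4.25 and 1.72% ± 1.84 in WT, so both values lay near those shares.

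**Figure D3:**
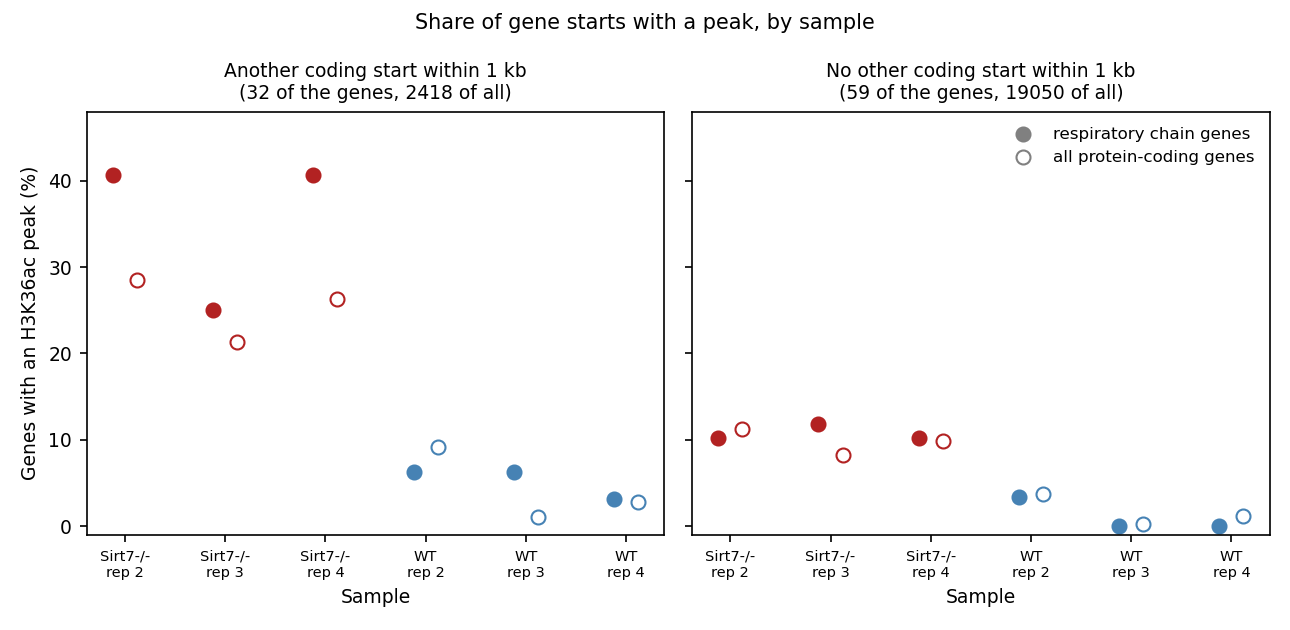
Share of gene starts with a promoter peak (y axis, %) in each sample (x axis), for genes with (left) and without (right) another protein-coding start within 1 kb; filled circles are respiratory chain genes, open circles all protein-coding genes, red Sirt7-/- and blue WT. Filled red circles lie above the open ones on the left in all 3 samples, at 25.0% to 40.6% beside 21.4% to 28.5%. On the right they lie between 10.2% and 11.9%, beside 8.25% to 11.3%. There they are below the open circle in replicate 2 and above it in replicates 3 and 4.

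At shared starts a peak cannot be given to a single gene. Of the 39 peaks at the 17 genes of this kind, the midpoint lay on the downstream side of the respiratory chain gene for 18 and upstream of its start for 21, and the partner had the nearest start for 24. The 21 peaks at the other 14 genes had the respiratory chain gene as the nearest start in every case, and 17 of the 21 midpoints lay downstream of it. Peaks at shared starts had a median width of 516 bp and those at the other genes 355 bp.

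Respiratory chain peaks were spread over the Sirt7-/- lists. Ranked by the authors' -log10 q, where 0% is the best and 100% the weakest peak, their median rank was 43.2%, 58.6% and 59.9% in Sirt7-/- replicates 2, 3 and 4, while that of all promoter peaks was 48.5%, 49.5% and 47.6%. The median fold over input was 4.096, 4.54 and 3.89, close to the 4.08, 4.69 and 4.11 of all promoter peaks. The best 10% of the lists held 2 of 19, 1 of 15 and 3 of 19 respiratory chain peaks, and the best ranks were 204, 75 and 84. None of the 53 peaks was among the 64 best of its list, the number that WT replicate 3 held in all. When each list was cut to its 64 best peaks, no respiratory chain gene was called in any Sirt7-/- sample. A mean of 0.304% of all starts was called there, which is under 1 gene in a list of 91. The difference between genotypes turned to -0.733 points, since 2 genes remained in WT replicate 3. Lists of equal length remove most of a genotype difference in calls by construction, so this value does not test that difference. With the -log10 p of at least 5.99 that every peak of WT replicate 3 had, applied to all lists, the difference was 7.33 points. No gene was left with calls throughout Sirt7-/- and none in WT, beside 0.946% of all starts.

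**Figure D4:**
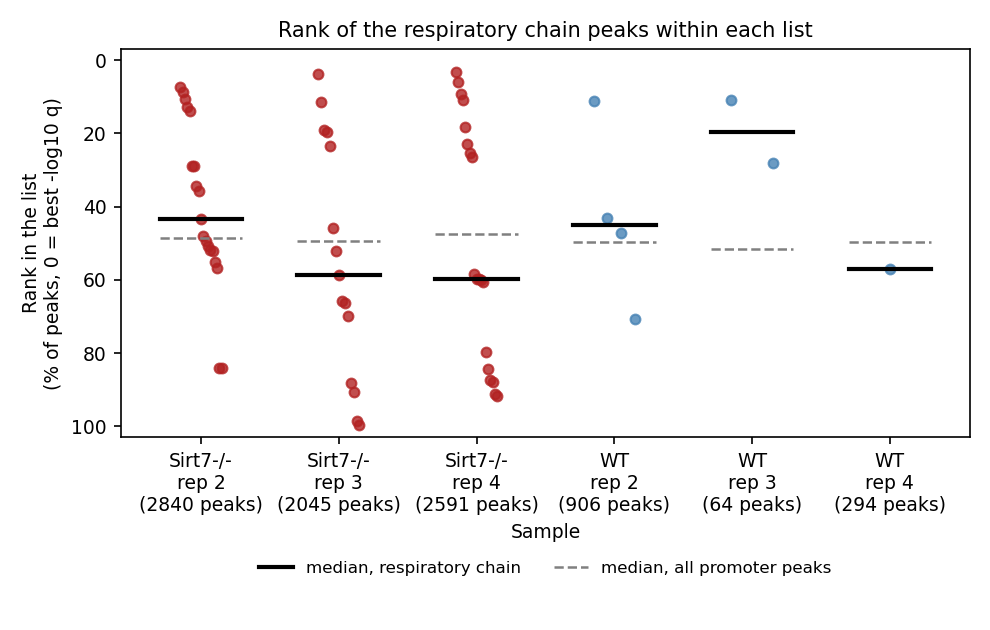
Rank of each respiratory chain promoter peak within its own list (y axis, % of the peaks of the list by -log10 q, 0 is the best), by sample (x axis, with the number of peaks in the list); black bars are medians and dashed lines the medians of all promoter peaks. The points are spread over much of the list in each Sirt7-/- sample.

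The promoters of these genes have the base composition known for housekeeping genes. RefSeq promoter sequence was at hand for 75 of the 91 genes. Their median ratio of observed to expected CpG was 0.829, against 0.577 over 17492 promoters. It was 0.889 in the 23 with a promoter peak in at least 1 Sirt7-/- sample and 0.763 in the 52 with none. Sequence was thus at hand for 23 of 31 genes with a peak and 52 of 60 without. The sequence of Cox7a2, Cox5a and Atp5d, all without a peak, lay 11569, 3904 and 3577 bp from the start used for the calls. The NRF1 motif was found in 13.3% of the 75 promoters and in 2.41% of all, the ETS motif in 21.3% and 11.9%, the YY1 motif in 9.33% and 1.92%, and the SP1 motif in 34.7% and 34.0%. Among promoters with a Sirt7-/- peak the shares were 8.70% (2 of 23) for NRF1, 21.7% (5 of 23) for ETS, 13.0% (3 of 23) for YY1 and 43.5% (10 of 23) for SP1, and among those with no peak they were 15.4%, 21.2%, 7.69% and 30.8%. A match is a run of letters and not evidence of binding. The genes were also short, with a median length of 7131 bp against 17535.5 bp over all genes.

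Other genes of mitochondrial respiration also had promoter peaks, and the mean shares in Sirt7-/- samples lay on both sides of the 11.6% of all starts, at 9.52% for complex II and the carriers, 16.7% for assembly factors and for mitochondrial DNA expression, 25.6% for the citric acid cycle and 51.9% for nuclear regulators. Of 14 genes for complex II and the electron carriers, 2, 1 and 1 were called in the Sirt7-/- samples and 1, 0 and 0 in WT, and Sdhaf2, an assembly factor of succinate dehydrogenase, was called in all 3 Sirt7-/- samples and 1 WT sample. Of 32 assembly factors with other symbols, 5, 5 and 6 were called in Sirt7-/- and 2, 0 and 0 in WT, and Cox20 and Timmdc1 (factors for complexes IV and I) were called in every Sirt7-/- sample but not in WT, while Cox14 was called in 1 WT sample only. Among 13 citric acid cycle genes, 2, 4 and 4 were called in Sirt7-/- and 1, 0 and 1 in WT. Suclg1, a subunit gene of succinyl-CoA ligase, had a peak in 3 Sirt7-/- samples and 1 WT sample, and Sucla2, another of its subunits, in 1 WT sample only.

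Of 12 genes that maintain and express mitochondrial DNA, 3, 1 and 2 were called in Sirt7-/- and 2, 0 and 0 in WT. Tfam, which packages and transcribes mitochondrial DNA, was called in 2 Sirt7-/- samples, and Ssbp1, which binds single strands of this DNA, in 1 WT sample only. The 9 nuclear regulators of respiration were called most often, at 5, 5 and 4 genes in Sirt7-/- and 3, 0 and 2 in WT. Nrf1 and Yy1 each had a promoter peak in 3 Sirt7-/- and 2 WT samples, Pprc1 in 3 and 1, and Gabpa in 3 and 0, the last by the peaks it shares with Atp5j.

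Large families of housekeeping genes spanned the value of the respiratory chain genes. In Sirt7-/- samples 17.1% ± 7.06 of 78 mitochondrial ribosomal protein genes, 19.2% ± 8.04 of 40 proteasome subunit genes and 32.2% ± 4.54 of 89 cytosolic ribosomal protein genes had a promoter peak (SD, n = 3 each). The first and second families differed from the 19.4% ± 2.54 of the respiratory chain genes by less than the spread between samples, and the cytosolic ribosomal protein genes were higher in every Sirt7-/- sample (37.1%, 28.1% and 31.5%). In WT samples the shares were 2.56% ± 3.39, 3.33% ± 5.77 and 7.12% ± 10.4.

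**Figure D5:**
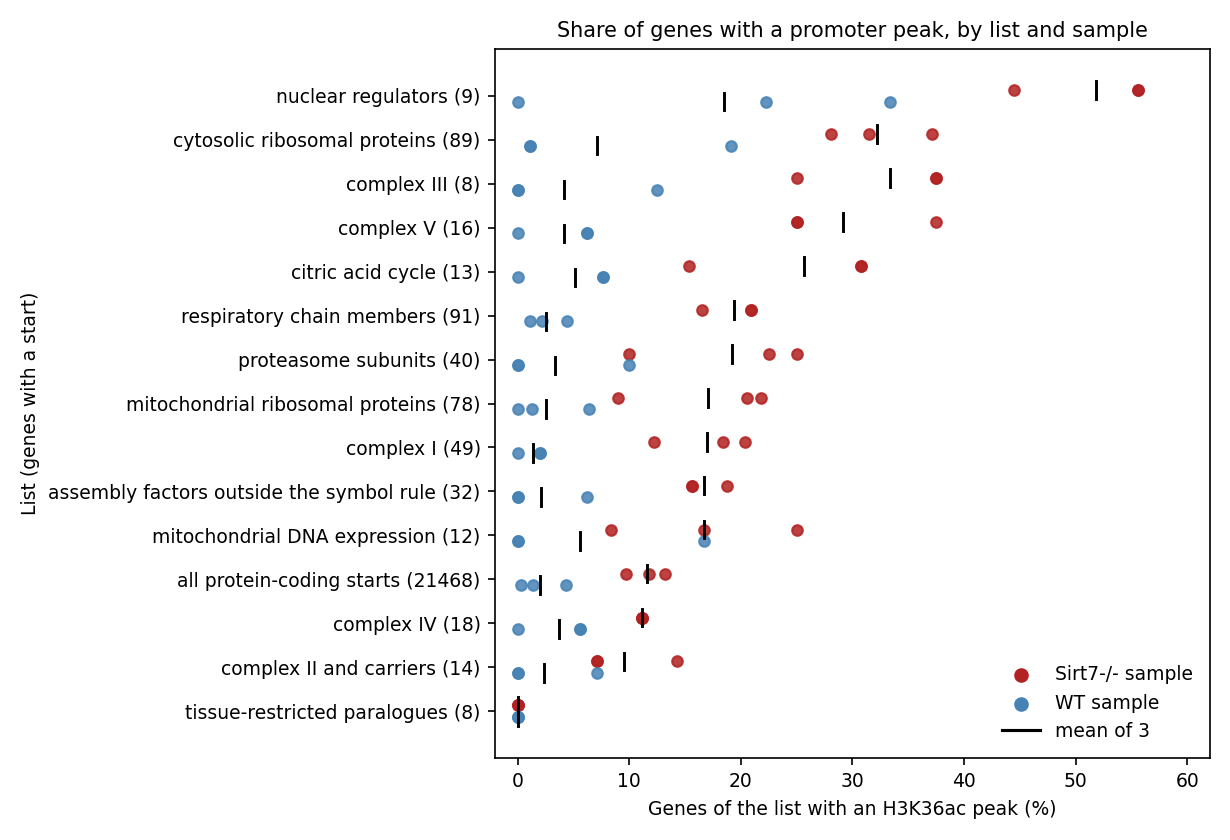
Share of the genes of each list with a promoter peak (x axis, %) in every sample (points, red Sirt7-/- and blue WT) with the mean of 3 (black bars); the y axis names the list and its number of genes. The respiratory chain genes lie beside the proteasome and mitochondrial ribosomal protein genes, above all protein-coding starts and below the cytosolic ribosomal protein genes.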

How the data were processed

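The authors aligned reads to mm10 with Bowtie2 (2.4.4.1), removed duplicates and reads that mapped to several places or with a quality under 30, and used MACS2 (2.2.5) with a broad cutoff of 0.1 to call peaks in each ChIP sample over the matching input. The deposited lists give for each peak its position, a score, the fold over input, and -log10 p and -log10 q. Spike-in nucleosomes were added, but no spike-in factor was applied to the lists. Versions are from the submitters' processing notes.

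Gene ends came from the RefSeq table of GRCm38.p6, and strand from the RefSeq promoter table (17492 genes) or, failing that, from GENCODE vM39 by symbol and chromosome (3976). Both gave the same strand for 99.4% of 15718 genes, and 419 genes had none. Calls, covered length, exact two-sided permutation tests over 20 assignments and Benjamini-Hochberg adjustment were computed over all starts with Python 3.11.15, pandas 2.3.3 and NumPy 2.4.6. They were tested on simulated data, in which 100% of 200 peaks placed near starts were called and none of those placed beyond 3 kb was.

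The named genes were the core subunits of complexes I, III and V with Cox4i1, Cox5a, Cox5b and Cox6c, the paralogue sets, the Ndufaf factors, every gene with a WT peak, and up to 5 genes per complex called throughout Sirt7-/- but never in WT, by mean rank. Genes called in 1 or 2 Sirt7-/- samples outside that rule were named after their values were seen. Some genes of these lists are not reported here by name. The members and lists were chosen with earlier results of these data known. Ribosomal protein genes exclude Rps6k and Rps19bp symbols. The settings varied were the -log10 q, the peak width, the number of peaks, the distance, the set of starts, a replicate block, a common -log10 p and each replicate left out. The 6 inputs entered only through peak calling.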

Additional observations from a re-analysis of the deposited data

How the results depend on the processing

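Equal lists changed most. Cutting every list to 64 peaks removes most of a genotype difference in calls by construction. It left 0.304% of all starts called in Sirt7-/-, which is under 1 of the 91 genes, so the next values do not test the genotype difference. With the 64 best peaks of each list, the difference between genotypes in the share of respiratory chain genes with a promoter peak was -0.733 points, the ratio to all starts in Sirt7-/- was 0, the counts of genes called throughout Sirt7-/- but never in WT and of genes with non-overlapping covered length were both 0, and the Sirt7-/- minus WT number of samples called at Ndufa4 was -1. The difference of 16.8 points was 12.8 at a -log10 q of at least 2, 8.79 for peaks of at least 500 bp, 9.60 without shared starts, 30.2 at shared starts only and 7.33 at a common -log10 p, the last 2 chosen after seeing the data. The count of 5 genes was 3, 2, 1 and 0 at that q, width, without shared starts and at the common p. The share of all starts with this pattern fell as well, from 2.45% to 1.68%, 1.12% and 0.946% at that q, width and common p. It was 2.03% among starts without another within 1 kb, beside 1.69% of the 59 respiratory chain genes of this kind. With the 64 best peaks it was 0.00466% of all starts. The count of 7 genes was 3 by width, 1 without shared starts and 0 at the common p. Without shared starts that count was 1.69% of the 59 genes, beside 3.13% of all such starts. Shares over all starts were not taken for it under the other changed settings. The ratio of 1.68 was 1.92 at that q, 1.80 within 1 kb, 1.96 within 500 bp, 1.82 without the Ndufaf genes, 1.12 without shared starts, 1.38 at shared starts only and 1.48 at the common p. The cause of these shifts was not tested.

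Leaving out each replicate gave 16.1 to 18.3 points, 5 to 8 and 7 to 12 genes, and ratios of 1.64 to 1.74. The highest counts, 8 and 12, came without Sirt7-/- replicate 3. At that setting 4.38% of all starts were called throughout Sirt7-/- but never in WT, beside 2.45% with all samples. Leaving out a sample can only keep or raise both counts, because fewer samples have to meet the condition. Over all alternatives the WT ratio ran from 0.299 to 4.69. For 12 named genes, the Sirt7-/- minus WT number of samples called was followed under the 14 settings that do not merely choose which genes are counted. Of 168 values, 1 turned its direction (Ndufa4, above), 71 moved and 96 did not. Leaving out a sample with a peak changes this number by construction, so the moved values include such cases. Cox7a2l and Atp5a1 started from 0, where no turn could be counted, and both reached -1.

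The labels do not say that replicate numbers pair animals. Same-numbered samples correlated at 0.0874, 0.0943 and 0.00957 in their deviations from the group means, and WT replicate 4 correlated better with Sirt7-/- replicate 3 (0.0539) than with its own number. With the replicate block the difference was 16.8 points, which equals the unpaired value by construction. The number of genes with more covered length in every pair was 8. This number cannot fall below the unpaired count, and it was not taken over all starts, so neither value tests the pairing. No precision can be given for a single call without the depth after duplicate removal.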
